A study of Mus musculus with 12 samples.

Results

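Neurospheres cultured from the forebrain of (pro)renin receptor knockout embryos were compared with control neurospheres. They make up 6 of the 12 RNA-seq libraries of the series, 3 CKO and 3 control, and were chosen by their labels and not by any measured value. The CKO libraries, titled fy/cre, have the genotype label (P)RR_CKO, a conditional knockout of the receptor in neural stem cells. The control libraries, titled fy/-, are labelled Wildtype. Both groups are C57BL/6J, labelled male, and were prepared at embryonic day 16. The other 6 libraries come from whole brains at embryonic day 15 and are not used here. The sources used here name neither the Cre driver nor the deleted part of the gene. They do not say whether libraries of a group came from separate embryos or cultures, so p-values measure only the spread between these libraries, which may be technical.

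The (pro)renin receptor, encoded by Atp6ap2, is a membrane protein that binds renin and its precursor. It is also an accessory subunit of the V-ATPase, the pump that moves protons across membranes and so acidifies lysosomes and endosomes. The pump has a membrane-bound V0 sector, which carries the protons, and a cytosolic V1 sector, which hydrolyses ATP. Neurospheres are floating clusters that grow from neural stem cells and progenitors, usually in medium with the growth factors EGF and FGF2, and they hold stem cells beside early neurons, astrocytes and oligodendrocyte precursors.

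Exon reads numbered 13167498 to 18636787 in CKO libraries and 12382975 to 14050572 in control libraries. Control 1 stood apart from the other control libraries: 1151 and 913 genes differed more than 2-fold between it and controls 2 and 3, against 41 genes between controls 2 and 3. Although labelled male, it held 1 read over 6 Y-linked genes, against 1767 to 2796 in CKO libraries and 2482 and 2992 in controls 2 and 3. Among CKO libraries, CKO 1 differed from CKO 2 and CKO 3 in 569 and 706 genes by the same measure, and these from each other in 167. With all 6 libraries edgeR called 1958 genes higher and 1595 lower in CKO neurospheres, 14.7% and 12% of 13316 tested. Without control 1 it called 2850 and 2391, or 21.1% and 17.7% of 13496. Results are therefore given with all 6 libraries and, for the lists, also without control 1. Without both libraries numbered 1 it called 3740 and 3633, or 28.1% and 27.3% of 13328 (55.3% in either direction). Without control 3, or without CKO 2, edgeR called 0 genes (4177 and 4282 at an unadjusted p under 0.05), so each list count given below was 0 in those fits. The median log2 fold change over all genes was -0.02 with all 6 libraries and -0.01 without control 1.

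Markers of neural stem cells were abundant in every library. As TPM, reads divided by exon length and scaled to the same total in each library, the radial glia fatty acid-binding protein Fabp7 averaged 4010 ± 155 in CKO and 5138 ± 1702 in control neurospheres (SD, n = 3 each), and the stem cell transcription factor Sox2 averaged 416 ± 95.6 and 560 ± 92.4. Summed over 24 such markers, CKO libraries held 11329 to 12538 TPM and control libraries 11478 to 15515. The sums were 2868 to 4821 TPM in CKO and 6557 to 14645 TPM in control libraries for 23 astrocyte markers, and 2241 to 3320 TPM in CKO and 3082 to 3731 TPM in control libraries for 25 neuronal markers. Defining markers of microglia and endothelial cells were near 0. The microglial gene Cx3cr1 had at most 0.0415 TPM in CKO and 0.146 TPM in control libraries, and the endothelial gene Cldn5 at most 0.508 and 0.466 TPM. Libraries were made from whole neurospheres, so fewer cells of a type and less RNA per cell cannot be told apart.

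Atp6ap2 itself (ENSMUSG00000031007, chromosome X) was lower in CKO neurospheres but far from absent. Exon reads as CPM, that is scaled to the same library size, gave 62.2, 48.6 and 54.0 in CKO 1, 2 and 3, against 96.9, 96.6 and 95.1 in controls 1, 2 and 3. The groups did not overlap, and the control libraries lay within 2 CPM of each other. Lack of overlap was common: it held in 25.3% of all tested genes with CKO higher and in 22.8% with CKO lower. On the log2 scale CKO libraries differed from control libraries by -0.81 ± 0.11 (SE, n = 3 in each group; edgeR quasi-likelihood test with Benjamini-Hochberg adjusted p = 0.00965), and by -0.81 again without control 1 (adjusted p = 0.00437). Without control 3 and without CKO 2 the adjusted p was 0.0570 in each case.

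Reads that spanned exon-exon junctions, which come from spliced RNA, showed a larger difference. Divided by the total of all junction reads and given as RPM, without the TMM library factors used for CPM, they came to 60.9, 45.5 and 55.2 in CKO libraries, against 118, 120 and 105 in control libraries, a log2 fold change of -1.04 ± 0.13 (adjusted p = 0.00741). Over all genes, junction reads gave 12.4% of 10911 genes higher and 10.4% lower. Intron reads of the gene, mostly from unspliced RNA, did not separate the groups: 55.6, 50.6 and 61.0 RPM of all intron reads in CKO libraries, against 58.3, 36.8 and 51.1 in control libraries. These groups overlapped, with a log2 fold change of 0.13 ± 0.22 (adjusted p = 0.763). Intron reads of this gene were few, 67 to 95 in CKO and 46 to 119 in control libraries. Per 100 exon reads they came to 10.6, 8.82 and 9.59 in CKO libraries, against 9.41, 3.84 and 5.83 in control libraries, of which control 1 was the highest. The tables count reads per whole gene, so loss of single exons cannot be read from them.

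**Figure D1:**
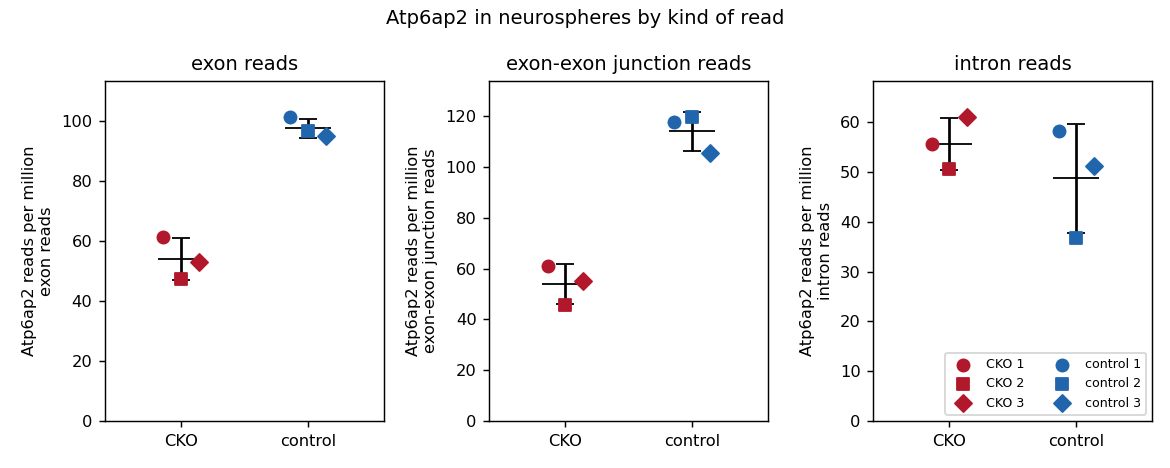
Atp6ap2 level (RPM, relative to all reads of the same kind) in each of 6 neurosphere libraries, with group mean and SD (n = 3 per group), for exon reads, exon-exon junction reads and intron reads. Exon and junction reads separate the groups, with CKO junction values of 45.5 to 60.9 and control values of 105 to 120, while intron reads overlap.

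Those other genes of the proton pump that passed with all 6 libraries were lower. Over all tested genes 14.7% were higher and 12% lower in that fit, and 21.1% and 17.7% without control 1. Whether the pump lists depart from these shares was not tested. Of 8 tested V0 subunits 0 rose and 3 fell (median log2 fold change -0.26), of 9 V1 subunits 0 passed (median 0.19), and of 11 accessory and assembly factors besides the receptor 0 rose and 3 fell (median -0.09). Atp6v0a1, the V0 a-subunit typical of neurons, had 93.9, 56.9 and 52.1 CPM in CKO libraries, against 173, 147 and 142 in control libraries (-1.19 ± 0.24, adjusted p = 0.0182). Every CKO value lay below every control value, and CKO 1 was the highest of its group. The V0 a-subunit gene Tcirg1 (-0.84) and the V0 d-subunit gene Atp6v0d1 (-0.30) also fell, as did the assembly factor gene Dmxl2 (-0.61), Rogdi (-0.57) and Tmem9b (-0.57). Atp6ap1, the pump's other accessory subunit, had 190, 175 and 187 CPM in CKO libraries, against 181, 173 and 168 in control libraries (0.08 ± 0.08, adjusted p = 0.460). Without control 1 the V0 count was 0 higher and 4 lower, and 3 V1 subunits, among them Atp6v1h (0.34), passed as higher and 1 as lower. The accessory count was then 0 higher and 4 lower. The lower V0 subunits numbered 0, 2 and 1, and the lower accessory factors 0, 2 and 0, without control 2, CKO 1 or CKO 3 in turn.

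Lysosomal and autophagy genes showed no common direction except for a lower autophagy group. Of 31 tested lysosomal hydrolases 2 rose and 2 fell, and of 21 lysosomal membrane and TFEB-linked genes 2 rose and 4 fell. Without control 1 the counts were 4 and 2, and 4 and 4. Cathepsin F, encoded by Ctsf, had 22.6, 25.5 and 30.1 CPM in CKO libraries, against 67.4, 90.8 and 70.7 in control libraries (-1.55 ± 0.16, adjusted p = 0.00798). Npc1, which exports cholesterol from lysosomes, fell by 0.50 on the log2 scale, the amino acid sensor gene Slc38a9 by 0.89 and the lysosomal membrane gene Scarb2 by 0.74. Of 29 autophagy genes 0 rose and 12 fell (median -0.37), and 0 and 16 passed without control 1, but 0, 6 and 5 were lower without control 2, CKO 1 or CKO 3. They include the kinase gene Ulk2 (-0.83), the selective autophagy receptor gene Calcoco1 (-1.03), Atg14 (-0.85) and Map1lc3b (-0.82), whose product coats autophagosomes and which had 118, 110 and 117 CPM in CKO libraries, against 150, 248 and 212 in control libraries. Of the renin-angiotensin genes 5 of 12 had enough reads to be tested, and Ace, angiotensin-converting enzyme, rose, with 31.8, 8.47 and 14.6 CPM in CKO libraries, against 4.21, 4.43 and 5.12 in control libraries (1.99 ± 0.48, adjusted p = 0.0296). Of the others, Agt, which encodes angiotensinogen, had -1.22 and did not pass, and Ren1 and the receptor gene Agtr1a were not among the tested genes.

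Genes of DNA replication and mitosis rose nearly throughout. Before a cell divides, the origin recognition complex, Cdc6 and Cdt1 load the MCM helicase onto DNA in G1 phase, the replication fork copies the DNA in S phase, and mitotic kinases and the spindle separate the copies. With all 6 libraries 13 of 16 licensing genes, 33 of 34 fork and nucleotide supply genes and 36 of 39 mitosis genes rose, and 0 fell in each list. Median log2 fold changes were 1.64, 1.40 and 1.41. Without control 1 the counts were 13, 34 and 39, and the medians 2.27, 1.75 and 1.74. Without control 2, CKO 1 or CKO 3 in turn, the counts were 3, 5 and 2 for licensing genes, 16, 22 and 13 for fork genes, and 31, 29 and 8 for mitosis genes. The licensing genes that did not pass with all 6 libraries were Orc3 (-0.06), Orc4 (0.05) and Orc5 (0.08).

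Cdc6 had 41.3, 33.8 and 28.5 CPM in CKO libraries, against 14.4, 2.90 and 4.69 in control libraries (2.23 ± 0.56, adjusted p = 0.0318). The helicase gene Mcm3 had 256, 211 and 196 CPM in CKO libraries, against 98.8, 31.3 and 40.4 in control libraries (1.96 ± 0.43, adjusted p = 0.0229). Cyclin B1, encoded by Ccnb1, had 242, 251 and 246 CPM in CKO libraries, against 120, 48.8 and 88.3 in control libraries (1.52 ± 0.30, adjusted p = 0.0182). In each of these genes the groups did not overlap, and control 1 lay between the other control libraries and the CKO libraries. Thymidine kinase (Tk1) rose by 2.11, ribonucleotide reductase (Rrm2) by 1.92, the sliding clamp gene Pcna by 1.49, the uracil-DNA glycosylase gene Ung by 2.07, the histone chaperone gene Asf1b by 2.19, and the mitotic kinase genes Aurka and Plk1 by 1.79 each on the log2 scale. Intron reads of the same lists moved alike, with medians of 1.09, 1.30 and 1.40 against -0.02 over all genes. In intron reads edgeR called 1 of 16, 5 of 34 and 11 of 39 members higher, where it called 1.19% of 11836 genes higher and 0.794% lower.

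Cyclins and E2F factors, which drive the passage from G1 to S phase, rose in part. Of 18 tested genes 11 rose and 3 fell, and without control 2, CKO 1 or CKO 3, 2, 6 and 6 rose. Cyclin E1, encoded by Ccne1, had 44.8, 36.03 and 31.7 CPM in CKO libraries, against 13.7, 5.80 and 6.40 in control libraries (2.12 ± 0.35, adjusted p = 0.0134), and the activator gene E2f2 rose by 2.11. The G1 brake genes Rb1 (-0.50) and Rbl2 (-0.44) fell, as did Mycn (-1.09). Cyclin D1, encoded by Ccnd1, had 1866, 1772 and 1317 CPM in CKO libraries, against 990, 109 and 121 in control libraries. The groups did not overlap, but control 1 was some way above controls 2 and 3, and the gene did not pass with all 6 libraries (2.02 ± 0.87, adjusted p = 0.126). Without control 1 it did (3.83, adjusted p = 0.000849).

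Promoters of these genes are shown because their members moved together and because short motifs common in cell cycle promoters lie in them. Sequences are RefSeq windows on GRCm38.p6 from 250 bases before to 50 after the annotated start, written 5′ to 3′ on the gene's strand. In the first pair, of the origin recognition subunit gene Orc1 (chr4:108579204-108579503, plus strand) and of Mcm3 (chr1:20820263-20820562, minus strand), capitals mark matches to TTNGCGC on either strand, a form of the binding site of E2F factors. In the second pair, of Aurka (chr2:172370521-172370820, minus strand) and Plk1 (chr7:122159185-122159484, plus strand), capitals mark the CCAAT box (CCAAT) and the cell cycle homology region (TTTGAA) on either strand.
Orc1: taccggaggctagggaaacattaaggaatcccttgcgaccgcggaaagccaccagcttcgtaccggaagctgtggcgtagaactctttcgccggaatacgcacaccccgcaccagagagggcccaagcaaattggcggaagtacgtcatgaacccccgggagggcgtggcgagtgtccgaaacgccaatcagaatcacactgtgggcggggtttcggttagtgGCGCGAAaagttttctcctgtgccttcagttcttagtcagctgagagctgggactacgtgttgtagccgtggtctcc
Mcm3: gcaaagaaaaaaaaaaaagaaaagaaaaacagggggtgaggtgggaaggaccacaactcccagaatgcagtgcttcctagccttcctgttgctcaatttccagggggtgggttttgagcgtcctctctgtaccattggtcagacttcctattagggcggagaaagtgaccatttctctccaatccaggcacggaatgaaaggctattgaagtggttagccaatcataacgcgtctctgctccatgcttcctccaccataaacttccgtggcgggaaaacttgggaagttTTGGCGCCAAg
Aurka: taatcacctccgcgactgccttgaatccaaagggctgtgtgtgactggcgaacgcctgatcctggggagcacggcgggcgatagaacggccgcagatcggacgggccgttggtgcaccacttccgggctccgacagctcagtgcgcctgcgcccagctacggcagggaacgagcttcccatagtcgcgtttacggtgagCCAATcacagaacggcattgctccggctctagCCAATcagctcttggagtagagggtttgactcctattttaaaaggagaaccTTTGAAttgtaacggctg
Plk1: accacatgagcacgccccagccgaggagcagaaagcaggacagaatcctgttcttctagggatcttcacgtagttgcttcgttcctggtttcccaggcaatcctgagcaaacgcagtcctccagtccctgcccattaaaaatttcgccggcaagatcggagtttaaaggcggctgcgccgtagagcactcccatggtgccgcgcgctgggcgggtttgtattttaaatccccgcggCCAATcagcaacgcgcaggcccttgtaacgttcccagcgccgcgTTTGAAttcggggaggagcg
The E2F form was found in the windows of 6 of 14 licensing genes (42.9%), 9 of 27 fork genes (33.3%) and 4 of 31 mitosis genes (12.9%), against 7.24% of 27025 genes with a window and 12.9% of 10495 tested genes. It was as frequent in 7 of 20 endoplasmic reticulum chaperone genes (35%), described below. The cell cycle homology region was found in 22 of 31 mitosis genes (71%), against 1 of 14 licensing genes (7.14%) and 20.2% of all genes. A CCAAT box was found in 22 of 31 mitosis genes (71%), 10 of 14 licensing genes (71.4%) and 15 of 27 fork genes (55.6%), against 41.1% of all genes. A match describes the letters in the window and not a bound factor.

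Genes that usually accompany growth factor signals and DNA damage depended on control 1. Of 21 listed EGF and FGF feedback genes 2 rose and 1 fell with all 6 libraries, against 15 and 2 without control 1. Feedback genes dampen growth factor signalling, but the list also holds ligand genes. Those called with all 6 libraries were the ligand gene Hbegf and Spred2, which rose, and the ligand gene Tgfa, which fell. Of 24 targets of p53, the tumour suppressor that responds to DNA damage, 1 rose and 3 fell, against 14 and 3. Of 17 immediate early genes, transcribed within minutes of a stimulus, 1 rose and 0 fell, against 9 and 0. Their medians were 0.47, 0.12 and 0.29 with all 6 libraries and 0.87, 0.66 and 1.27 without control 1.

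Egr1, an immediate early transcription factor, had 240, 120 and 78.4 CPM in CKO libraries, against 362, 13.5 and 17.3 in control libraries. Cdkn1a, the p53 target that encodes the cell cycle inhibitor p21, had 308, 462 and 436 CPM in CKO libraries, against 536, 92.7 and 124 in control libraries. The feedback gene Spry4 had 274, 153 and 95.8 CPM in CKO libraries, against 123, 17.2 and 19.6 in control libraries. In Egr1 and Cdkn1a control 1 was the highest of all 6 libraries, and in Spry4 it lay within the CKO range. With all 6 libraries their log2 fold changes were 0.16, 0.68 and 1.71 and did not pass. Without control 1 they were 3.23, 1.89 and 3.23 (adjusted p = 0.00640, 0.00287 and 0.00486). Whether the difference lies in control 1 or in controls 2 and 3 cannot be told apart in 3 libraries.

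**Figure D2:**
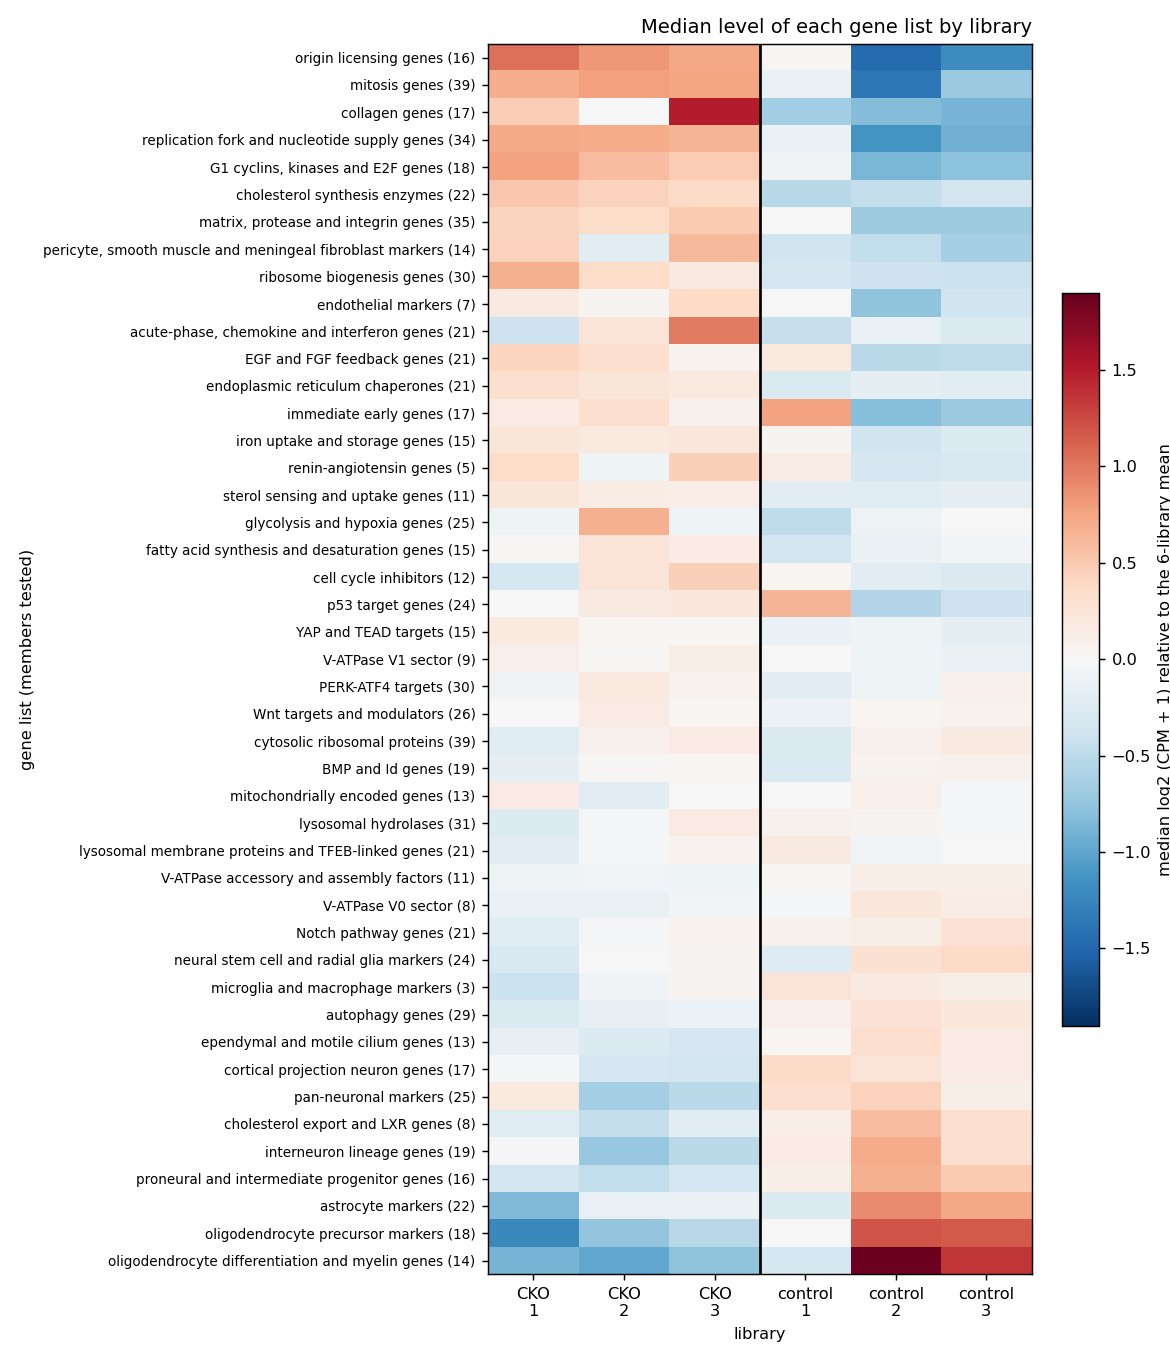
Median over the tested members of each gene list (number in brackets) of log2 (CPM + 1), relative to each gene's mean over the 6 libraries, in CKO libraries (left) and control libraries (right). Control 1 lies near the other control libraries for cholesterol synthesis (-0.53) and beside or beyond the CKO libraries for p53 targets (0.65) and immediate early genes (0.76).

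The place of control 1 between the groups can be given for each list. On a scale where the mean of controls 2 and 3 is 0 and the CKO mean is 1, over genes in which these differ by at least 0.5 on the log2 scale, control 1 had a median position of 0.452 over 5158 genes. These genes were picked by the same values that set 0 and 1, which by itself can draw control 1 toward the middle. The size of that effect was not tested. Control 1 lay near the other control libraries for cholesterol synthesis enzymes (-0.16), collagens (-0.04), endoplasmic reticulum chaperones (0.028) and ribosome biogenesis genes (0.116). It was about midway for mitosis genes (0.509) and fork genes (0.516), at 0.589 for licensing genes and 0.60 for oligodendrocyte precursor markers, and nearer the CKO libraries for myelin genes (0.762), astrocyte markers (0.795) and EGF and FGF feedback genes (0.881). It lay beyond the CKO mean for p53 targets (1.212) and immediate early genes (1.372).

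**Figure D3:**
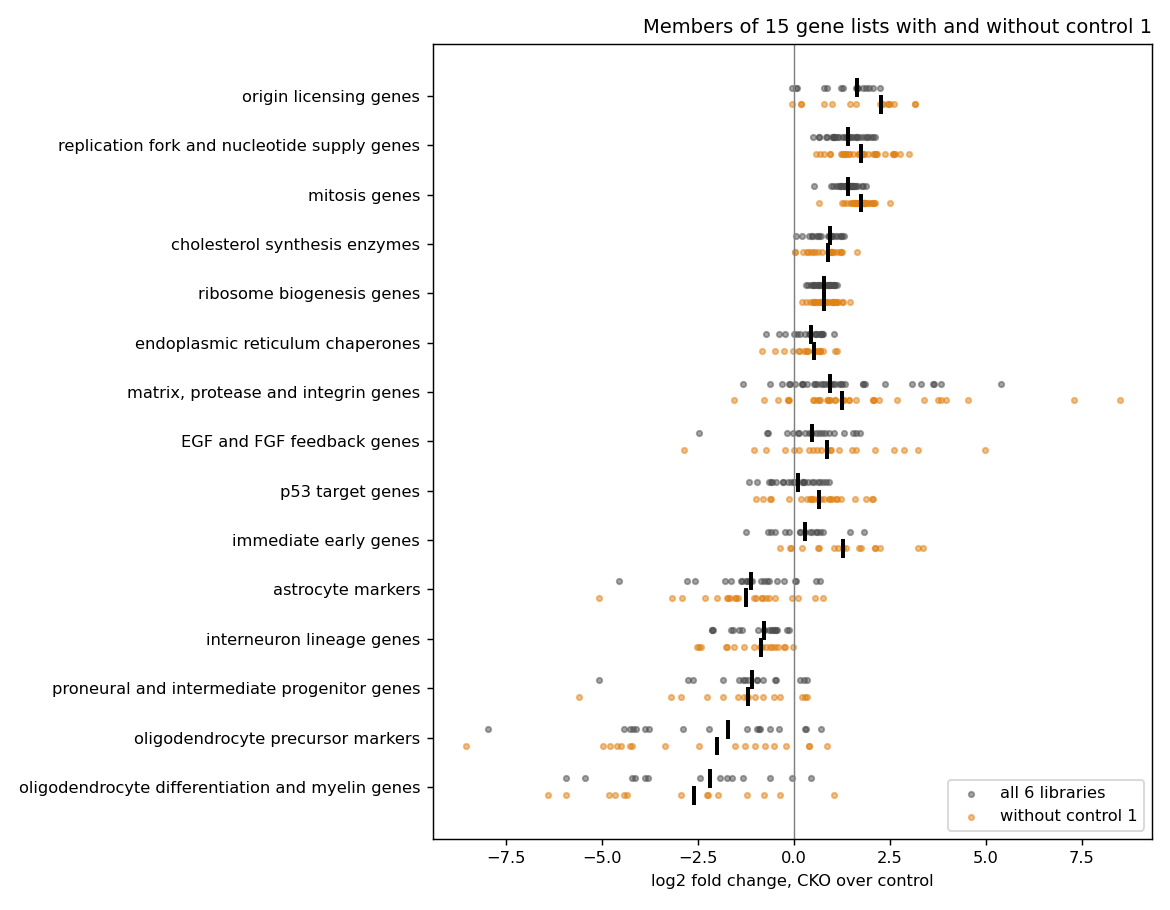
Log2 fold change (CKO over control) of each tested member of 15 gene lists with all 6 libraries (grey, upper row of each pair) and without control 1 (orange, lower row); black bars are medians. Medians of cholesterol synthesis enzymes (0.93 and 0.90) and ribosome biogenesis genes (0.78 and 0.79) hardly move, while that of immediate early genes is 0.29 with all 6 libraries and 1.27 without control 1.

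Genes of cholesterol synthesis rose with all 6 libraries and without control 1 alike. Cells make cholesterol from acetyl-CoA through mevalonate, squalene and lanosterol, and the transcription factor SREBP2 switches these genes on when membrane sterol is low. Of 22 enzymes 18 rose and 0 fell (median 0.93), and 17 and 0 without control 1 (median 0.90). Without control 2, CKO 1 or CKO 3 in turn 12, 17 and 13 rose. The list also moved in intron reads, with a median of 0.81 and 5 of 22 called higher. The enzymes that did not pass were Mvd (0.46), Ggps1 (0.07), Tm7sf2 (0.22) and Sc5d (0.48).

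Fdps, which makes farnesyl pyrophosphate, had 285, 285 and 281 CPM in CKO libraries, against 119, 110 and 127 in control libraries (1.26 ± 0.09, adjusted p = 0.00754). Idi1, which isomerises isopentenyl pyrophosphate, had 293, 236 and 234 CPM in CKO libraries, against 116, 101 and 117 in control libraries (1.19 ± 0.12, adjusted p = 0.00795). The groups were far apart in both genes, and control 1 was within the range of controls 2 and 3. The isomerase gene Ebp rose by 1.22 on the log2 scale and the squalene epoxidase gene Sqle by 1.06.

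Of 11 sterol sensing and uptake genes 4 rose and 0 fell, with 5 and 0 without control 1. Insig1, which holds SREBP in the endoplasmic reticulum, had 431, 449 and 410 CPM in CKO libraries, against 211, 175 and 204 in control libraries (1.13 ± 0.10, adjusted p = 0.00754), with no overlap of the groups. The sterol transporter gene Stard4 rose by 1.22 and Srebf2, which encodes SREBP2 itself, by 0.41. Cholesterol export and LXR genes went the other way, with 1 of 8 higher and 4 lower, the same counts as without control 1. In that list 0, 4 and 1 were lower without control 2, CKO 1 or CKO 3. The export pump gene Abca1 had 128, 205 and 270 CPM in CKO libraries, against 506, 644 and 561 in control libraries (-1.502 ± 0.27, adjusted p = 0.0151). Apoe, the main lipoprotein component of brain and also an astrocyte marker, had 248, 726 and 972 CPM in CKO libraries, against 1849, 5283 and 4503 in control libraries (-2.58 ± 0.59, adjusted p = 0.0257). Of 15 fatty acid genes 4 rose, namely Elovl1 (0.93), Elovl6 (0.72), Acly (0.62) and Acaca (0.45), and 0 fell. Without control 1, 5 rose and 2 fell, and without control 2, 1 rose.

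The promoter of Hmgcs1, HMG-CoA synthase (chr13:119690101-119690400, plus strand, RefSeq on GRCm38.p6), is shown as that of a called sterol gene whose window holds a sterol regulatory element core. Capitals mark that core (TCACNCCAC) and CCAAT boxes, each on either strand.
Hmgcs1: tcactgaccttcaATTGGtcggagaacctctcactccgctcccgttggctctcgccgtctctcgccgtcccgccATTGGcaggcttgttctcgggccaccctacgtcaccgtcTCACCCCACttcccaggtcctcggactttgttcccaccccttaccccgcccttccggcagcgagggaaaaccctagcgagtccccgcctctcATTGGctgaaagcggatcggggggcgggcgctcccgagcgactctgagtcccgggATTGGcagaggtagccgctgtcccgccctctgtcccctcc
Among 17 cholesterol synthesis enzymes with a window the core was found in 1 (5.88%), against 1.44% of all genes, and a CCAAT box in 16 (94.1%), against 41.1% of all genes. A CCAAT box was also found in 18 of 20 endoplasmic reticulum chaperone genes (90%). Hmgcs1 had 1199, 1426 and 1420 CPM in CKO libraries, against 691, 905 and 1002 in control libraries (0.64 ± 0.16, adjusted p = 0.0328).

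Of 30 listed ribosome biogenesis genes, most of which help make or process ribosomal RNA, 26 rose and 0 fell (median 0.78). The counts were 25 and 0 without control 1. Without control 2, CKO 1 or CKO 3 in turn 7, 20 and 20 rose. The methyltransferase gene Fbl had 152, 148 and 142 CPM in CKO libraries, against 82.9, 77.5 and 84.3 in control libraries (0.85 ± 0.08, adjusted p = 0.00754). Srm (1.13), Dkc1 (1.07), Gnl3 (1.05) and Ddx21 (1.03) were the 4 with the largest changes, and in each CKO 1 was the highest library. Of these, Srm does not act on ribosomal RNA itself. The proteins of the finished ribosome did not follow, with 0 of 39 called in either direction and a median of 0.01, and 1 lower without control 1. Intron reads of those ribosomal protein genes nevertheless had a median of 0.73, with 0 of 39 called, and those of the biogenesis genes 0.66.

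**Figure D4:**
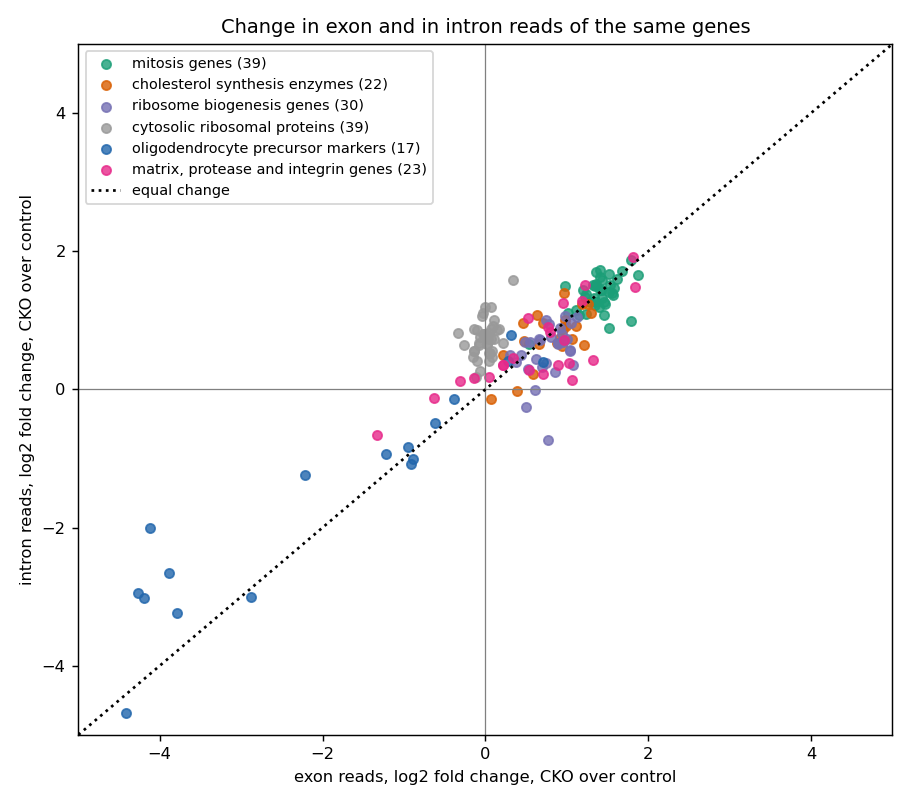
Log2 fold change (CKO over control) in exon reads (horizontal axis) and intron reads (vertical axis) of the genes of 6 lists that were tested in both, with the number of genes in brackets and a dotted line of equal change. Mitosis and cholesterol synthesis genes lie near the line, with medians of 1.41 and 0.93 in exon reads and 1.40 and 0.81 in intron reads, while cytosolic ribosomal proteins lie above it, with medians of 0.01 in exon reads and 0.73 in intron reads.

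Chaperones of the endoplasmic reticulum, which fold secreted and membrane proteins, rose in part. Of 21 tested, 11 rose and 1 fell (median 0.44), with 12 and 3 without control 1 and 6 higher without control 2. Hspa5, which encodes the chaperone BiP, had 599, 507 and 531 CPM in CKO libraries, against 320, 346 and 331 in control libraries (0.71 ± 0.10, adjusted p = 0.0101). Sdf2l1 (1.04), Manf (0.75), Creld2 (0.72) and Pdia6 (0.69) rose and the oxidase gene Ero1b (-0.72) fell. Of 30 PERK-ATF4 targets, which answer to amino acid shortage and unfolded protein, 4 rose and 0 fell, with a median of 0.01, and 6 and 4 passed without control 1. Those that rose with all 6 libraries were Mthfd2 (1.34), Slc7a1 (0.90), Slc38a2 (0.55) and Atf4 itself (0.46). Of 25 glycolysis and hypoxia genes 5 rose and 0 fell, with 7 and 1 without control 1. Relative to the mean of the 6 libraries, the list's median level on the log2 scale was -0.075, 0.678 and -0.086 in CKO libraries, against -0.487, -0.097 and -0.002 in control libraries, so that CKO 2 stood apart and CKO 1 and CKO 3 lay close to controls 2 and 3. Hexokinase 2, encoded by Hk2, had 52.6, 86.1 and 49.5 CPM in CKO libraries, against 16.5, 13.4 and 22.7 in control libraries (1.84 ± 0.29, adjusted p = 0.0121), and Eno1 (1.21), Ldha (1.14), Pkm (0.81) and Gapdh (0.69) rose too. Of 13 mitochondrially encoded genes 0 passed, with a median of -0.03, and 3 were lower without control 1.

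Genes of the oligodendrocyte lineage were lower, in several cases by more than 10-fold. Oligodendrocyte precursors arise from neural stem cells, express Pdgfra and Sox10, and later make myelin. Of 18 tested precursor markers 1 rose and 11 fell (median -1.72), and of 14 genes of differentiation and myelin 0 rose and 8 fell (median -2.18). Over the members tested both ways, 2 rose and 14 fell, and 0 rose and 11 fell, without control 1, with medians of -2.01 and -2.61. Without control 2, CKO 1 or CKO 3 in turn 3, 9 and 5 precursor markers and 2, 3 and 2 myelin genes were lower. In intron reads 6 of 17 and 2 of 9 were called lower and 0 higher.

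Pdgfra, the receptor for the growth factor of these cells, had 9.66, 12.3 and 29.6 CPM in CKO libraries, against 73.2, 293 and 340 in control libraries (-3.79 ± 0.71, adjusted p = 0.0161). Sox10, the transcription factor of the lineage, had 0.973, 10.2 and 14.5 CPM in CKO libraries, against 52.1, 221 and 196 in control libraries (-4.19 ± 0.93, adjusted p = 0.0233). Bcas1, a marker of newly forming oligodendrocytes, had 13.1, 10.6 and 7.41 CPM in CKO libraries, against 20.1, 391 and 255 in control libraries (-4.41 ± 1.01, adjusted p = 0.0251). The groups did not overlap in these genes, and control 1 lay lowest of the control libraries, in Bcas1 much nearer to the CKO libraries than to controls 2 and 3. Gpr17, a receptor of committed precursors, had 0, 1.16 and 4.02 CPM in CKO libraries, against 16.5, 692 and 541 in control libraries. The myelin protein gene Mbp (-3.88) and the myelin regulator gene Myrf (-3.80) fell too.

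Of the transcription factors that specify the lineage, Olig1 and Olig2 were not lower. Nkx2-2, another transcription factor among the precursor markers, had 25.3, 19.7 and 14.6 TPM in CKO libraries, against 18.4, 50.7 and 48.3 in control libraries. Its groups overlapped, through control 1. Olig2 had 637, 513 and 427 CPM in CKO libraries, against 472, 397 and 396 in control libraries (0.32 ± 0.16, adjusted p = 0.185). Olig1 had 993, 1080 and 966 CPM in CKO libraries, against 972, 744 and 781 in control libraries (0.28 ± 0.13, adjusted p = 0.146), and without control 1 it passed as higher (0.40, adjusted p = 0.0213). The precursor marker Cspg4 had -0.95 and did not pass. Sapcd2 (0.71) was the 1 listed precursor marker that rose. Erbb4, a neuregulin receptor in none of these lists, had 18.4, 15.5 and 9.27 CPM in CKO libraries, against 61.9, 121 and 112 in control libraries (-2.77 ± 0.35, adjusted p = 0.00898).

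**Figure D5:**
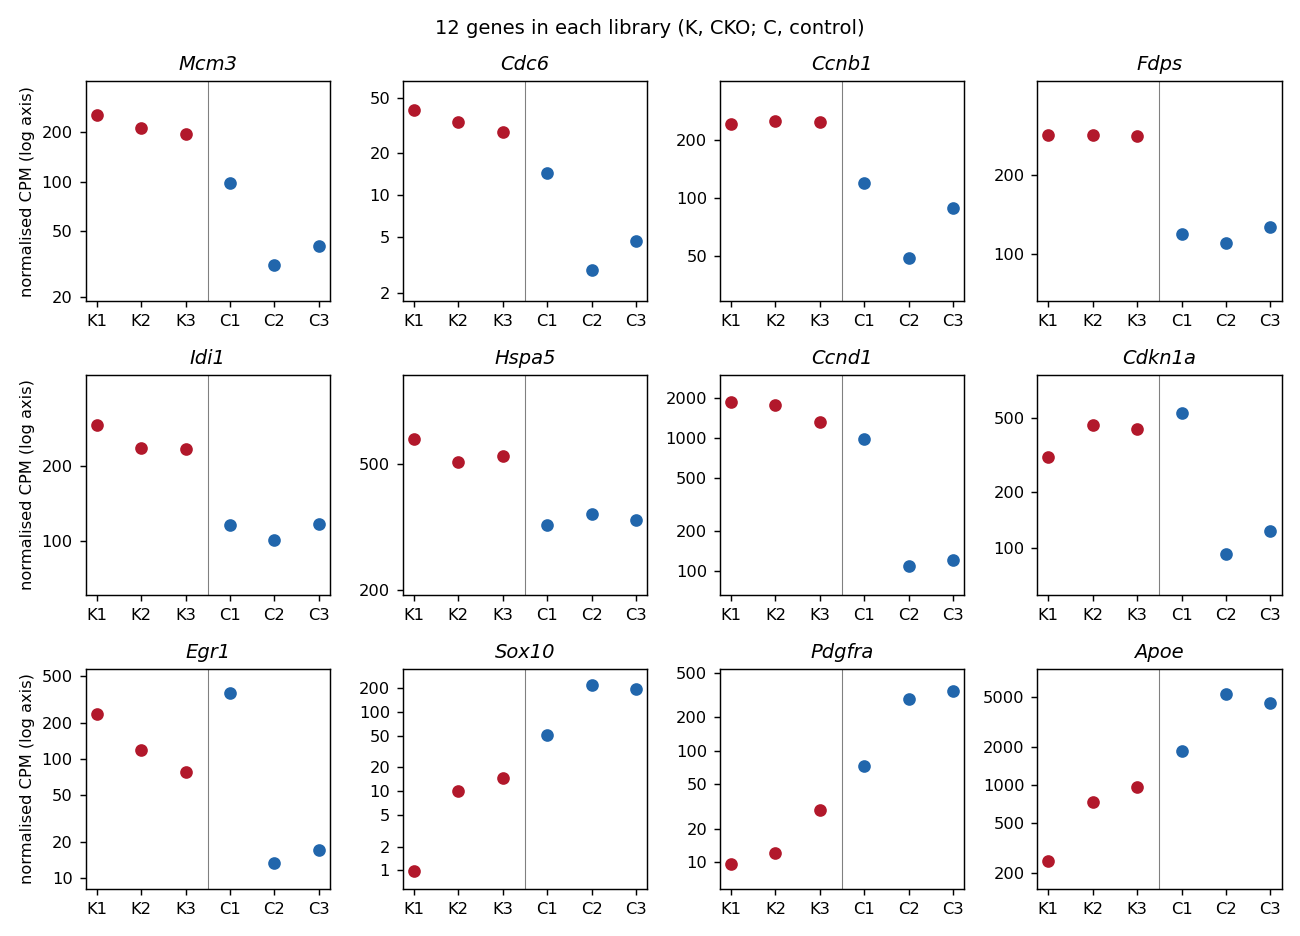
Normalised CPM (log axis, scaled for each gene) of 12 genes in CKO libraries 1 to 3 (red, K1 to K3) and control libraries 1 to 3 (blue, C1 to C3). Fdps, Idi1 and Hspa5 show alike control libraries, while in Ccnd1, Cdkn1a and Egr1 control 1 (990, 536 and 362 CPM) lies far above controls 2 and 3.

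Some astrocyte markers were lower, and among these markers control 1 was often nearer to the CKO libraries than to the other control libraries. Of 22 astrocyte markers 2 rose and 5 fell (median -1.12), and 2 and 12 passed without control 1. Without control 2, CKO 1 or CKO 3, 0, 3 and 0 were lower. Ndrg2, an astrocyte marker, had 21.9, 87.0 and 118 CPM in CKO libraries, against 211, 717 and 640 in control libraries (-2.79 ± 0.71, adjusted p = 0.0327), with no overlap of the groups. Gfap, the filament protein of astrocytes, had 13.4, 225 and 402 CPM in CKO libraries, against 117, 1340 and 771 in control libraries. Its groups overlapped and it did not pass (-1.80 ± 1.21, adjusted p = 0.293). The glutamine synthetase gene Glul had 359, 381 and 341 CPM in CKO libraries, against 373, 1114 and 947 in control libraries, where control 1 was level with the CKO libraries (-1.17 ± 0.37, adjusted p = 0.0607). Without control 1 Glul passed (-1.52, adjusted p = 0.00114).

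Of 24 markers of stem cells and radial glia 2 rose and 1 fell with all 6 libraries. The median was -0.31, and 11 of the 24 had a log2 fold change above 0. Without control 1, 7 rose and 10 fell, with a median of -0.53. The matrix protein gene Tnc, active in the stem cell niche, had 1394, 1122 and 872 CPM in CKO libraries, against 758, 575 and 498 in control libraries (0.89 ± 0.22, adjusted p = 0.0324), and Gli3 rose by 0.55. Mfge8, a secreted phagocytosis factor, fell by 1.503 on the log2 scale. The intermediate filament gene Nes, nestin, had 1636, 1191 and 996 CPM in CKO libraries, against 840, 316 and 446 in control libraries (1.26 ± 0.38, adjusted p = 0.0523). Its groups did not overlap, and it passed without control 1 (1.73, adjusted p = 0.00506). Sox2 had -0.34 (adjusted p = 0.294), and the Notch target Hes5 had 19.4, 92.7 and 136 CPM in CKO libraries, against 76.8, 225 and 259 in control libraries (-1.18 ± 0.72, adjusted p = 0.254).

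Neuronal genes were lower in a moderate number. Of 25 pan-neuronal markers 1 rose and 8 fell (median -0.64), the same counts as without control 1. Dcx, a microtubule protein of migrating young neurons, had 164, 84.5 and 92.7 CPM in CKO libraries, against 241, 381 and 311 in control libraries (-1.45 ± 0.30, adjusted p = 0.0193). Neuronal tubulin, encoded by Tubb3, had 112, 89.7 and 114 CPM in CKO libraries, against 193, 296 and 204 in control libraries (-1.14 ± 0.19, adjusted p = 0.0134). Gap43, a growth cone protein, was the 1 member that rose (1.05). CKO 1 had the highest Dcx of its group, and without it 0 rose and 19 fell, while 3 fell without control 2 and 3 without CKO 3.

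Of 16 proneural and intermediate progenitor genes 0 rose and 6 fell, of 19 interneuron lineage genes 0 rose and 7 fell, and of 17 projection neuron genes 0 rose and 4 fell. Medians were -1.08, -0.78 and -0.36, and without control 2 each of the 3 counts was 0. Without control 1, 10, 10 and 4 fell, and without CKO 3 each count was 1. The Notch ligand gene Dll3, active in newborn neurons, had 6.67, 13.7 and 19.5 CPM in CKO libraries, against 41.6, 101 and 102 in control libraries (-2.62 ± 0.49, adjusted p = 0.0162). Dlx1, a transcription factor of interneurons, had 18.4, 7.98 and 9.04 CPM in CKO libraries, against 29.8, 75.1 and 50.8 in control libraries (-2.14 ± 0.45, adjusted p = 0.0203). The groups did not overlap in either gene. Neurog2 (-2.75), Neurod6 (-1.32) and Lhx6 (-1.60) fell too. Of 21 Notch pathway genes 1 rose and 2 fell, with 3 and 4 without control 1. The ligand gene Jag1 rose, with 182, 94.5 and 74.1 CPM in CKO libraries, against 46.3, 15.1 and 16.2 in control libraries (2.18 ± 0.55, adjusted p = 0.0320).

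Matrix and collagen genes were higher, with a wide spread among CKO libraries. Of 35 matrix, protease and integrin genes 17 rose and 1 fell (median 0.95), with 23 and 2 without control 1, while 4, 10 and 6 rose without control 2, CKO 1 or CKO 3. Spp1, which encodes the secreted protein osteopontin, had 149, 35.6 and 63.3 CPM in CKO libraries, against 17.8, 2.90 and 4.05 in control libraries (3.32 ± 0.84, adjusted p = 0.0323). The integrin gene Itga6 had 298, 307 and 339 CPM in CKO libraries, against 218, 153 and 183 in control libraries (0.77 ± 0.14, adjusted p = 0.0157). Col18a1, a basement membrane collagen, had 186, 226 and 268 CPM in CKO libraries, against 96.3, 21.4 and 25.2 in control libraries (2.25 ± 0.59, adjusted p = 0.0359). These groups did not overlap. Npnt (2.35) and Lgals1 (1.84) rose, and the protease inhibitor gene Timp3 fell (-1.33).

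Of 17 collagens 8 rose and 1 fell, with 6 and 1 without control 1, and 1, 4 and 3 rose without control 2, CKO 1 or CKO 3. Col3a1, a collagen of connective tissue, had 77.3, 25.0 and 609 CPM in CKO libraries, against 7.28, 16.6 and 12.9 in control libraries (4.27 ± 1.21, adjusted p = 0.0440), and Thbs2 had 23.01, 28.0 and 164 CPM in CKO libraries, against 11.9, 7.90 and 5.69 in control libraries (3.08 ± 0.85, adjusted p = 0.0405). CKO 3 was far the highest library in both. Some markers of pericytes, smooth muscle and meningeal fibroblasts moved with them, and 12 of 14 tested had a log2 fold change above 0. The pericyte gene Pdgfrb and the smooth muscle gene Tagln were lower on average, with overlapping groups. They averaged 4.83 and 3.25 TPM in CKO libraries, against 7.07 and 4.89 TPM in control libraries. The fibroblast gene Lum had 4.10, 0.660 and 34.8 CPM in CKO libraries, against 1.07, 0.564 and 0.355 in control libraries, and Dcn had 16.3, 3.52 and 50.7 CPM in CKO libraries, against 4.52, 3.30 and 1.92 in control libraries. Summed over 22 such markers, levels were 124, 83.7 and 262 TPM in CKO libraries, against 76.0, 85.3 and 61.4 TPM in control libraries. With all 6 libraries 4 of 14 tested rose and 0 fell, where 14.7% of all genes were higher. Without control 1 the counts were 2 and 0 of the same 14, where 21.1% of all genes were higher. The part of these markers in the collagen result was not tested. Of these markers Prrx1 was even among CKO libraries, with 87.0, 80.9 and 80.2 CPM, against 30.9, 40.9 and 39.9 in control libraries (1.15 ± 0.13, adjusted p = 0.00847).

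Among genes called with and without control 1, with groups that did not overlap, the 12 with the largest rise and the 12 with the largest fall mostly belong to the groups above. The diacylglycerol kinase gene Dgkk, in none of these lists, rose by 2.18, with 55.1, 44.0 and 29.0 CPM in CKO libraries, against 19.1, 4.43 and 4.76 in control libraries. Tnr, a matrix glycoprotein of oligodendrocyte precursors and neurons, had 27.9, 26.5 and 34.1 CPM in CKO libraries, against 82.0, 912 and 709 in control libraries (-4.27 ± 0.84, adjusted p = 0.0180). Among the 12 that fell most were also Tcp11l2 (-2.92), the cell adhesion gene Dscaml1 (-2.63), Ppp1r16b (-2.61) and Plppr1 (-2.48).

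The remaining lists held 4 or fewer calls in each direction with all 6 libraries, where 14.7% of all genes were higher and 12% lower. Several held more without control 1, as did all genes together (21.1% higher and 17.7% lower). Of 26 Wnt targets and modulators 4 rose and 0 fell (median 0.07), close to the 14.7% higher over all genes, with 8 and 5 without control 1. The feedback target Axin2 had 54.4, 66.2 and 50.8 CPM in CKO libraries, against 38.2, 33.2 and 28.5 in control libraries (0.78 ± 0.15, adjusted p = 0.0180), and Lef1 (2.31), Tcf7 (1.74) and Fzd1 (1.32) rose too. Of 19 BMP and Id genes 3 rose and 1 fell, with 4 and 6 without control 1. Of 15 genes listed as YAP and TEAD targets 4 rose and 2 fell, with 5 and 4 without control 1. The list also holds genes of the factors themselves. Those that rose were Amotl1 and the factor genes Tead2, Yap1 and Wwtr1, while the targets Amotl2 and Ccn1 fell. Of 15 iron genes 4 rose and 1 fell, with 7 and 2 without control 1. Of 12 cell cycle inhibitors Cdkn2c (1.11) and Cdkn2d (0.88) rose and 0 fell, with 5 and 2 without control 1. Of 21 acute-phase, chemokine and interferon genes 4 rose and 0 fell (median 1.15), with 5 and 1 without control 1. None of the 4 was above 11.2 CPM in any library. Without control 2, CKO 1 or CKO 3 in turn 2, 10 and 3 members of that list rose. Of 13 ependymal genes 0 rose and 3 fell, with 0 and 2 without control 1. Of 7 tested endothelial markers Plvap (1.61) rose and 0 fell, with 4 and 1 without control 1. Of 3 tested microglia markers Lyz2 (-2.17) fell, at no more than 0.541 CPM in CKO and 2.06 CPM in control libraries, and 1 fell without control 1.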

How the data were processed

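RNA was counted in 3 CKO and 3 control neurosphere libraries. The labels' protocols describe removal of ribosomal RNA from 500 ng of total RNA, followed by a strand-marking library kit. GRCm38 and mm10 are named as builds in the submitters' processing notes. The aligner, and any use of strand in counting, were not given in the sources used here, so genes that overlap on opposite strands may share reads. The deposited table gives whole-number counts per gene and library, not normalized, per the file headers, for exon, uniquely placed exon, exon-exon junction and intron reads. The authors also deposited, per gene, a signed fold score with a p-value and an FDR value, which served for comparison and are not quoted. Another 60 columns of per-sample values were not used. Of 25655 genes, 3731 had no exon length.

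Exon counts were fitted in edgeR 4.0.16 (R 4.3.3) with TMM factors, filterByExpr, robust glmQLFit and a two-sided glmQLFTest on the 6 libraries. P-values were adjusted by Benjamini-Hochberg across every tested gene, and genes below 0.05 were called. Standard errors are the absolute log2 fold change over the square root of F. Normalised CPM use TMM factors, and TPM divide exon reads by exon length. Replicates differed by more than sampling noise and each counted as 1. On simulated counts of 13206 genes for this comparison, 47% of 100 genes changed by 1 and 92% of 100 changed by 2 on the log2 scale were recovered, with 11 false calls. Each simulated gene varied on its own around a common mean per group, so no simulated library stood apart over many genes as control 1 did. The recovery and false calls may therefore differ in the real libraries.

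Named genes are Atp6ap2, then the 12 largest and 12 smallest log2 fold changes among genes called with and without control 1, with groups that did not overlap and at least 20 CPM in every library of the higher group. List members named are the called ones with the largest changes and those that define the list or complete its count, and a few shown for their pattern over libraries were chosen after their values were seen. The members and the gene lists were chosen with earlier results of these data known. Motifs were searched on both strands in RefSeq promoter windows, and a gene counts if any of its windows matches. Alternatives were other scalings, filters, tests (DESeq2 1.42.0, limma 3.58.1), kinds of reads, a replicate block and leaving out libraries.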

Additional observations from a re-analysis of the deposited data

How the results depend on the processing

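Without 1 library the counts of called genes ranged over 0 to 2850 higher and 0 to 2391 lower, being 532 and 266 without control 2, 1598 and 1588 without CKO 1, and 855 and 504 without CKO 3. Of the genes called with all 6 libraries, 1851 higher and 1529 lower ones were called again without control 1. limma voom with library weights called 4166 and 4111, intron reads 141 and 94, and the fit without both libraries numbered 1 called 3740 and 3633. DESeq2 called 2479 and 2236, upper-quartile factors 1750 and 1752, exon-exon junction reads 1349 and 1138, and the other scalings, filters and uniquely placed reads stayed within 1.5 times of the main counts. The log2 fold change of Atp6ap2 ranged from -0.91 to -0.73 without 1 library, was above 0 in intron reads (0.13, adjusted p = 0.763), and did not pass without control 3 or without CKO 2 (adjusted p = 0.0570 in edgeR for each). It passed in the other settings run. In intron reads Tcirg1 (0.20) and Abcg4 (0.084) also changed sign, with the cause not tested. Of the same-numbered pairs of libraries, those numbered 1 and 3 deviated together (correlations of 0.257 and 0.233) and those numbered 2 did not (-0.026), and not every library correlated best with its own number, so the numbers were not taken to pair the libraries. With a replicate block 2072 genes were higher and 1753 lower, of which 1742 and 1302 were also called without it, and Atp6ap2 had -0.82. Of 170 named genes 20 did not pass with the block, among them Atp6v0d1 (adjusted p = 0.0594), Rogdi (0.0696), Rb1 (0.0578), Mbp (0.0618), Bcas1 (0.0738), Neurod6 (0.0509), Col3a1 (0.0933) and Thbs2 (0.0951), by edgeR. Intron reads were fewer than exon reads, 1099075 to 1710175 in CKO and 1251562 to 2042625 in control libraries.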
